A study of Mus musculus with 4 samples.

Results

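Krt84 and Krt36 encode hair-type keratins, here read in basal cells sorted from mouse tail epidermis. They were taken as all probe sets whose platform symbol was Krt84 or Krt36, which gave 1 probe set for each gene, 2 of 18193 genes named on the array. Both genes were selected on their log2 values on these same 4 arrays, which earlier results had shown to be far higher in InvCREER than in K14CREER cells. Their values are therefore a description and carry no test.

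Keratins are the intermediate filament proteins of epithelia, and a filament needs a type I keratin paired with a type II keratin. Krt36 is a type I keratin and Krt84 a type II keratin, both of the hair-type or hard group, which builds hair, nail and the filiform papillae of the tongue. Tail skin of the mouse also uses hard keratins in its scales, areas that cornify without a granular layer. The interscale epidermis between them forms a granular layer and makes Krt10 and Krt2.

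The InvCREER group held 2 arrays of cells from mice with the tamoxifen-inducible Cre recombinase under the involucrin promoter, and the K14CREER group held 2 arrays from mice with that recombinase under the keratin 14 promoter. All mice were CD-1 and carried the RosaYFP reporter, and basal cells of interfollicular epidermis were sorted as alive, YFP-positive, CD34-negative and high in alpha6 integrin. InvCREER mice received 10 ug of tamoxifen and K14CREER mice 1 ug, and the dose therefore cannot be told apart from the Cre line. The titles give 3.5 days after induction and the treatment protocol 4 days. The involucrin promoter is best known from suprabasal cells. By the design, the InvCREER cells are basal cells whose reporter was switched on through that promoter. Its activity in these cells was not measured here, and the values of Ivl are given below. Age and sex of the mice were not given in the sources used here, and nothing in the labels ties the 2 arrays of a line to different animals. Spread between arrays of a line, and with it every p-value, may be technical in part. The 2 InvCREER arrays differed in sex-linked genes, as given below, so they were not repeats of the same RNA. Across probe sets the K14CREER arrays lay about as far apart, with a median absolute difference of 0.25 in log2 units in each line. Among genes with large gaps, K14CREER 1 was above K14CREER 2 by 2.48 for Cd34 and by 3.12 for Krt6b. How much of the K14CREER spread was technical was not tested.

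The libraries did not all match each other. The Y-linked genes Uty, Kdm5d and Eif2s3y were at log2 values of 4.70, 5.04 and 7.49 on InvCREER 1, against 7.01 to 10.25 on the other 3 arrays. Xist was at 12.56 on InvCREER 1, 8.26 on InvCREER 2, 7.25 on K14CREER 1 and 5.44 on K14CREER 2. InvCREER 1 also had the highest 3' to 5' ratio of the Actb control probe sets, a sign of RNA quality, at 1.24 in log2 units against 0.68 to 0.94. Krt14, read beside the sort, was at 13.82 and 13.85 in InvCREER cells and at 14.14 and 14.17 in K14CREER cells. These values are close to the highest on any array, 14.22. Krt10, a keratin of the spinous layers, was at 14.07 and 14.11 in InvCREER cells, so a high Krt14 level does not measure how pure the basal cells were. Itga6, the integrin of the gate, was at 11.62 and 11.77 in InvCREER cells and 12.38 and 12.41 in K14CREER cells. Cd34 was at 3.88 and 3.66 in InvCREER cells and at 6.07 and 3.59 in K14CREER cells, so that K14CREER 1 was above the filter value of 5.42 described with the comparison. Ivl, the involucrin gene, had a mean below that filter value, with 4.78 and 5.06 in InvCREER cells and 4.58 and 6.23 in K14CREER cells.

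The stretches just before the start sites of Krt84 and Krt36 are shown because the genes lie on different chromosomes and yet were high on the same arrays. They are RefSeq sequences of GRCm38.p6, 250 bases before the annotated start, on the minus strand of chr15:101532821-101533070 for Krt84 and of chr11:100105627-100105876 for Krt36. Capitals mark matches to the TATA-type letters TATANAN on either strand.
Krt84: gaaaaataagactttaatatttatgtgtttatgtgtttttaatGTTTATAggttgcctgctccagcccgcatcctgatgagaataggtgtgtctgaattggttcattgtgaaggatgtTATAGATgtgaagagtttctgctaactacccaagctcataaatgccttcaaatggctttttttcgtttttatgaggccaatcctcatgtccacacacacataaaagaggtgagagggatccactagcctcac
Krt36: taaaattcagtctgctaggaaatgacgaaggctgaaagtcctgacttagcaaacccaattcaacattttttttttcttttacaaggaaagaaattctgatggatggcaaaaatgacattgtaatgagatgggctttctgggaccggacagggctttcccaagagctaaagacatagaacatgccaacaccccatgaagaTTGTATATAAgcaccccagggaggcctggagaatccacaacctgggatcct

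Krt84 had 2 such matches, beginning 207 and 132 bases before the start, and Krt36 had 3 that overlap each other, beginning 51, 49 and 48 bases before it. Of 32841 promoter windows of this length, 22.5% held at least 1 match. The other 4 patterns searched were CTTTGA of LEF and TCF factors (13.8% of windows), AACCNGTT of grainyhead-like factors (1.79%), TGANTCA of AP-1 (6.75%) and TTTACGA of the posterior HOX proteins (0.478%). None of these 4 letter patterns occurred in either window on either strand, which says nothing about the factors themselves. Both windows were poor in G and C, with 38.8% for Krt84 and 42.8% for Krt36, against a median of 52.4% over all windows. Of all windows, 9.68% had a lower share than Krt84 and 17.9% a lower share than Krt36.

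Krt84 (Entrez Gene 16680) had log2 values of 13.12 on InvCREER 1 and 12.82 on InvCREER 2, against 9.73 on K14CREER 1 and 8.69 on K14CREER 2. Both InvCREER arrays were high, and the lower of them stood 3.09 above the higher K14CREER array. The means were 12.97 ± 0.21 in InvCREER cells and 9.21 ± 0.73 in K14CREER cells (SD, n = 2 each). The difference was 3.76 in log2 units (moderated SE 0.33), or 13.6-fold.

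Krt36 (Entrez Gene 16673) had log2 values of 13.31 on InvCREER 1 and 13.45 on InvCREER 2, against 10.32 on K14CREER 1 and 9.85 on K14CREER 2. The lines did not overlap here either, with 2.99 between the lower InvCREER array and the higher K14CREER array. The means were 13.38 ± 0.10 in InvCREER cells and 10.08 ± 0.33 in K14CREER cells (SD, n = 2 each). The difference was 3.30 in log2 units (moderated SE 0.18), or 9.84-fold.

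**Figure D1:**
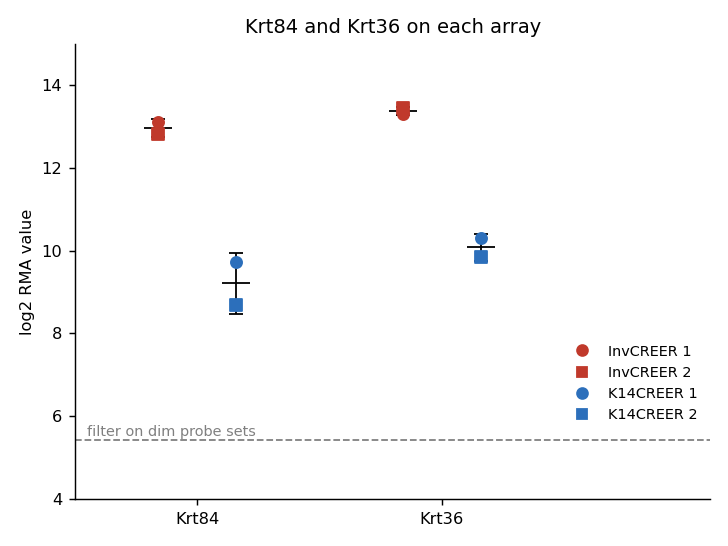
Log2 RMA values of Krt84 and Krt36 on each of the 4 arrays, InvCREER in red and K14CREER in blue, circles for number 1 and squares for number 2. Black bars give the mean and SD of each line (n = 2), and the dashed line is the filter value of 5.42. The lowest InvCREER value is 12.82 and the highest K14CREER value is 10.32.

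Neither gene was close to background in K14CREER cells: their lowest value there, 8.69, lay well above the filter value, so the size of the difference is not set by a floor. In InvCREER cells both were near the highest value on any array, 14.22. In bulk samples like these, more cells that carry a keratin and more of its RNA per cell cannot be told apart.

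The genes differed from each other in how the arrays of a line spread. In K14CREER cells number 1 was above number 2 for both, by 1.03 for Krt84 and 0.47 for Krt36. In InvCREER cells number 1 was above number 2 by 0.30 for Krt84, while for Krt36 number 1 minus number 2 was -0.14. The difference between same-numbered arrays was 3.39 for number 1 and 4.13 for number 2 in Krt84, and 2.99 and 3.60 in Krt36. For both genes the difference was larger between the arrays of number 2. The direction is fixed by the choice of the genes, whichever arrays are set against each other, and the numbers are not said to pair them.

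The comparison across the array set the background for all counts below. Probe sets were tested if their mean over the 4 arrays reached the median of all probe sets, a log2 value of 5.42. With limma and a Benjamini-Hochberg adjusted p under 0.05, 216 of 22519 tested probe sets were called (0.959%), 154 of them higher (0.684%) and 62 lower (0.275%) in InvCREER cells. The median difference over all tested probe sets was -0.01. The count depended on single arrays: it was 981 without InvCREER 2, 499 without InvCREER 1, 143 without K14CREER 2 and 82 without K14CREER 1.

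The other hair-type keratins did not share the pattern of Krt84 and Krt36. Of the 16 hair-type keratin genes listed, 12 had a named probe set, and the 10 besides Krt84 and Krt36 had levels of 3.53 to 8.20 on every array. Of these 10, 6 had means below the filter value, among them Krt31, a type I hard keratin known from tail scales, with 4.50 and 4.38 in InvCREER cells and 4.66 and 4.46 in K14CREER cells. With Krt84 and Krt36 counted, 2 of the 6 tested hair-type keratins were called, a count that the choice of these genes fixes, against 0.959% over the array. The other 4, Krt32, Krt33b, Krt81 and Krt83, were tested and 0 were called, with limma adjusted p of 0.601 to 0.959. Differences over the 10 genes ran from -0.33 to 0.70, with a median of -0.09. In 6 of the 10 the lines overlapped, in 1 the InvCREER arrays were both higher and in 3 both lower. These 10 include the 6 not tested. Of the 4 tested, Krt32 and Krt81 overlapped, and Krt33b and Krt83 were lower, Krt83 by a gap of only 0.007. Over all tested probe sets 42% did not overlap, 20% with InvCREER higher and 22.1% with InvCREER lower.

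Krt32, a type I keratin of the hair cuticle, had 7.40 and 8.20 in InvCREER cells and 7.22 and 7.49 in K14CREER cells, so the lines overlapped. Krt35, a type I keratin of the hair matrix and cuticle, had 5.46 and 4.96 in InvCREER cells and 4.54 and 4.48 in K14CREER cells. Its lines did not overlap, but its mean was below the filter value and it was not tested. The type II keratins Krt81 and Krt83 were flat, with Krt81 at 6.81 and 6.75 in InvCREER cells and 6.78 and 6.66 in K14CREER cells, and Krt83 at 6.37 and 6.42 in InvCREER cells and 6.43 and 6.49 in K14CREER cells. Krt39, Krt40, Krt85 and Krt87 had no named probe set and were not analysed here.

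**Figure D2:**
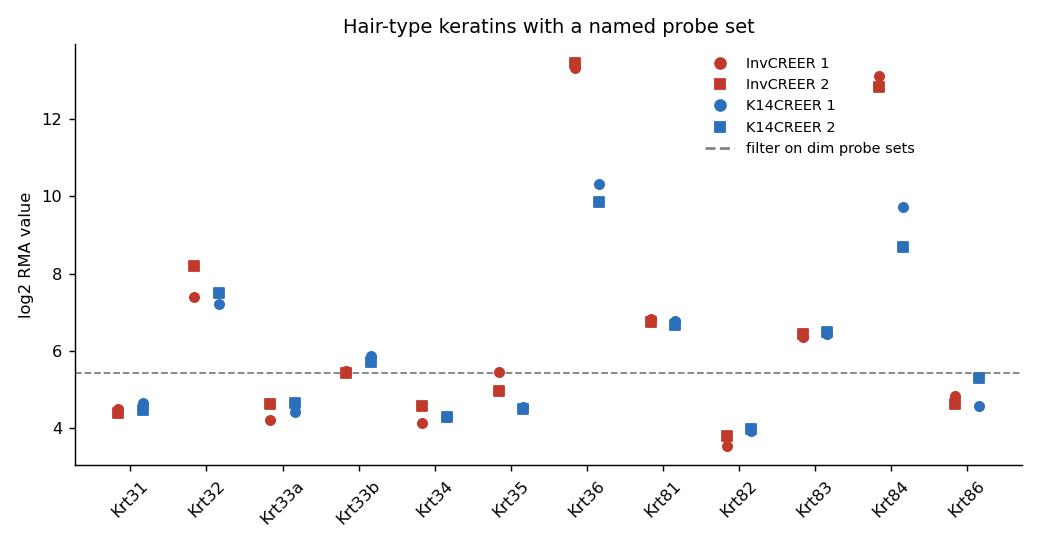
Log2 RMA values of the 12 hair-type keratins with a named probe set, InvCREER left in red and K14CREER right in blue for each gene, with the filter value of 5.42 as a dashed line. Krt36 and Krt84 stand at 12.82 to 13.45 in InvCREER cells and 8.69 to 10.32 in K14CREER cells. The other 10 lie between 3.53 and 8.20, and levels of different probe sets cannot be set against each other.

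Of the keratin genes near Krt36 and Krt84 on their chromosomes, Krt35, Krt13 and Krt82 had means below the filter value and were not tested. Krt36 lies in the type I cluster on chromosome 11 between Krt35 and Krt13 in the RefSeq table. Krt35, described above, had a difference of 0.70. Krt13, a keratin of mucosal epithelia, was at 3.84 and 3.97 in InvCREER cells and 3.76 and 4.31 in K14CREER cells. The gene after Krt13 is Krt15, a keratin of basal cells, which fell by 1.38 (SE 0.15, adjusted p = 0.0212 by limma) and had 11.35 and 11.07 in InvCREER cells against 12.71 and 12.46 in K14CREER cells. Its call was lost without K14CREER 1 (adjusted p = 0.0816 by limma) and without the variance trend (adjusted p = 0.0761 by limma). Krt84 lies in the type II cluster on chromosome 15, where Krt83 was tested and not called. Krt82, a hair cuticle keratin of the same cluster, was at 3.53 and 3.79 in InvCREER cells and 3.91 and 3.98 in K14CREER cells.

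Along both clusters 46 other keratin genes had a named probe set, 24 of which were tested. Of these, 4 rose (Krt24, Krt10, Krt2 and Krt1) and 1 fell (Krt15), against 0.959% called over all tested probe sets. The median difference of the 24 was 0.39. The differences of Krt84 and Krt36 were the largest of the 48 keratins by this measure, a rank that the choice of these genes used. Krt24 came next, a type I keratin at 11.67 and 12.08 in InvCREER cells and 9.52 and 9.40 in K14CREER cells. It rose by 2.42 (SE 0.19, adjusted p = 0.00824 by limma).

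**Figure D3:**
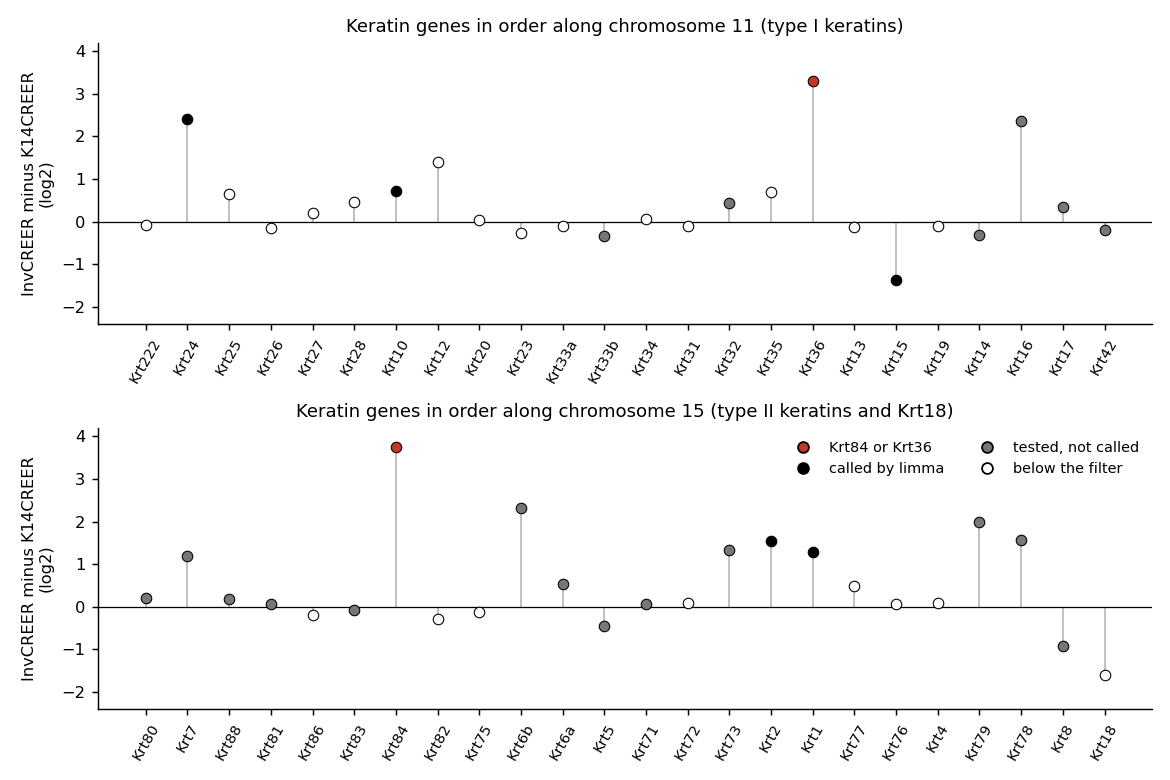
Difference InvCREER minus K14CREER in log2 units for each keratin gene with a named probe set, in gene order along chromosome 11 (top) and chromosome 15 (bottom). Red marks Krt36 (3.30) and Krt84 (3.76), black the genes called by limma, grey those tested and not called, and white those below the filter value. The keratins drawn directly beside the red genes have differences of -0.29 to 0.70.

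Keratins known from interscale epidermis were called higher in InvCREER cells, while the other tested interscale markers were not called by their brightest probe set. Of 10 listed genes 9 had a named probe set and 6 were tested, with a median difference of 0.66. Of these 6, 3 rose and 0 fell, against 0.959% called over all tested probe sets. The 3 were spinous and granular layer keratins of the epidermis. Krt2, the type II keratin of the upper interscale layers, had 13.57 and 13.26 in InvCREER cells and 11.55 and 12.17 in K14CREER cells and rose by 1.55 (SE 0.22, adjusted p = 0.0400 by limma). Krt1 had 13.48 and 13.74 in InvCREER cells and 12.50 and 12.13 in K14CREER cells and rose by 1.29 (SE 0.15, adjusted p = 0.0248 by limma). Krt10, its type I partner, had 14.07 and 14.11 in InvCREER cells and 13.31 and 13.44 in K14CREER cells and rose by 0.71 (SE 0.08, adjusted p = 0.0211 by limma). All 3 calls were lost without the variance trend (adjusted p of 0.0932 to 0.189 by limma), and those of Krt2 and Krt10 without K14CREER 1 (0.0504 and 0.0645).

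Other interscale markers went different ways or were dim. Dlx1, a homeobox gene used to mark interscale cells, had 5.53 and 6.21 in InvCREER cells and 6.44 and 7.02 in K14CREER cells, a difference of -0.86 that was not called (adjusted p = 0.325 by limma). Casp14, a caspase of cornifying cells, had probe sets that disagreed. The one with the highest mean, of a kind that can match several transcripts, was at 0.03 and was not called. The other had 8.36 and 7.84 in InvCREER cells and 6.06 and 5.64 in K14CREER cells, and was called (difference 2.25, adjusted p = 0.0319 by limma). Lor, which encodes a protein of the cornified envelope, had 6.88 and 7.70 in InvCREER cells and 6.16 and 7.20 in K14CREER cells, and was not called (difference 0.61, adjusted p = 0.655 by limma), nor was its other tested probe set (-0.02). Flg and Hrnr, which encode proteins of granular cells, had means below the filter value.

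Partners of hard keratins in hair were mostly not detected above the filter. Of 24 listed genes 16 had a named probe set, 3 were tested and 0 were called by limma. The list mean on the arrays was 5.78 and 5.84 in InvCREER cells and 5.74 and 5.66 in K14CREER cells. Krtap3-1, which encodes a matrix protein of the hair cortex, had 7.33 and 7.41 in InvCREER cells and 6.69 and 6.50 in K14CREER cells, a difference of 0.77 (adjusted p = 0.195 by limma). Tgm3, a transglutaminase of hair and epidermis, had 11.13 and 11.37 in InvCREER cells and 10.44 and 10.05 in K14CREER cells, a difference of 1.01 (adjusted p = 0.0769 by limma). Tchh, the trichohyalin of the inner root sheath, and Krtap8-1 had means below the filter value. Tchh was at 4.35 and 4.58 in InvCREER cells and 4.87 and 6.23 in K14CREER cells, and Krtap8-1 at 5.46 and 5.30 in InvCREER cells and 4.35 and 4.66 in K14CREER cells. With 1 array left out, the difference of Tgm3 was 0.82 to 1.21.

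Most regulators known from hair keratins or from tail patterning were not called. Of 28 listed genes 27 had a named probe set and 23 were tested, with a median difference of -0.03. Of the tested genes 2 rose and 0 fell, against 0.959% called over all tested probe sets. Both were grainyhead-like transcription factors of epidermal differentiation. Grhl3 had 8.70 and 9.04 in InvCREER cells and 5.93 and 6.24 in K14CREER cells, and rose by 2.78 (SE 0.25, adjusted p = 0.0122 by limma). Grhl1 had 10.72 and 10.83 in InvCREER cells and 8.89 and 8.94 in K14CREER cells, and rose by 1.87 (SE 0.17, adjusted p = 0.0133 by limma). Without K14CREER 1 the call of Grhl1 was lost (adjusted p = 0.0525 by limma), which left 1 call, and 3 were called without InvCREER 1 or without InvCREER 2.

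Foxn1, the transcription factor mutated in nude mice and needed for hair shafts, came close to the threshold. Its brighter probe set had 8.88 and 8.17 in InvCREER cells and 6.72 and 5.65 in K14CREER cells, a difference of 2.34 (adjusted p = 0.0665 by limma). The difference of the brighter one was 1.98 without InvCREER 1 and 2.69 without InvCREER 2. It was 2.87 without K14CREER 1 and 1.80 without K14CREER 2. Its dimmer probe set had 6.40 and 6.16 in InvCREER cells and 4.86 and 4.70 in K14CREER cells and was called, at 1.50 (adjusted p = 0.0461 by limma). Hoxc13, a homeobox factor that acts on hair keratin genes, had 9.91 and 9.67 in InvCREER cells and 9.10 and 8.20 in K14CREER cells, a difference of 1.14 (adjusted p = 0.176 by limma). Like Krt84, Foxn1 and Hoxc13 were higher on number 1 than on number 2 in both lines. That order was not particular to them: the sebaceous and the Langerhans and myeloid list means given below had it too. Krt36 did not have it in InvCREER cells. Ovol1, a zinc finger factor of differentiating epidermis, was at 8.08 and 8.07 in InvCREER cells and 6.47 and 7.04 in K14CREER cells (difference 1.33, adjusted p = 0.0908 by limma). Slc1a3, a glutamate transporter used to mark cells of the scale lineage, was not higher. Its brightest probe set had 6.06 and 6.04 in InvCREER cells and 6.74 and 6.11 in K14CREER cells (adjusted p = 0.678 by limma).

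**Figure D4:**
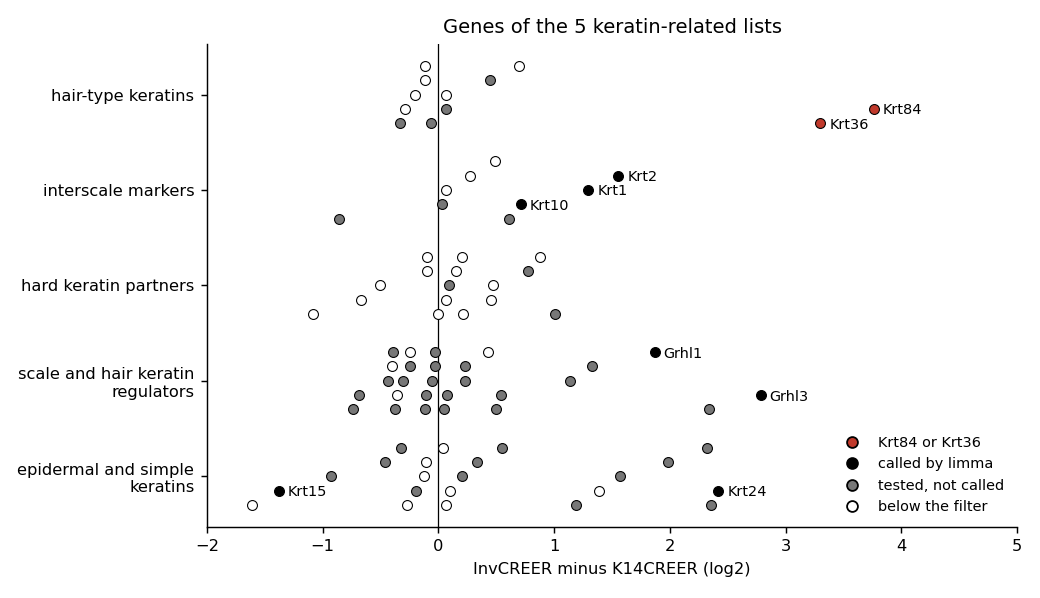
Difference InvCREER minus K14CREER in log2 units of the genes with a named probe set in 5 lists. Each gene is shown by its brightest probe set. Vertical offsets within a list carry no meaning, and names are given for Krt84, Krt36 and for the genes called by limma. Called genes beside Krt84 and Krt36 lie between -1.38 (Krt15) and 2.78 (Grhl3).

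Among 23 other epidermal and simple keratins, 22 had a named probe set and 14 were tested, with a median difference of 0.44. Of the 14, 1 rose (Krt24) and 1 fell (Krt15), against 0.959% called over all tested probe sets. The count of 2 calls became 5 without InvCREER 1 and 5 without InvCREER 2. Krt16, a keratin of stressed epidermis, had 10.95 and 12.28 in InvCREER cells and 9.84 and 8.69 in K14CREER cells, a difference of 2.35 (adjusted p = 0.104 by limma). Krt6b, another keratin of stressed epidermis, had 9.48 and 10.44 in InvCREER cells and 9.20 and 6.08 in K14CREER cells, a difference of 2.32 (adjusted p = 0.349 by limma). In both genes the K14CREER arrays were further apart than in Krt84 or Krt36. The difference of Krt6b was 3.88 without K14CREER 1 and 0.76 without K14CREER 2. That of Krt16 was 3.01 without InvCREER 1, 1.69 without InvCREER 2, 2.93 without K14CREER 1 and 1.78 without K14CREER 2.

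Markers of hair follicle cells were read because hair-type keratins are also made there. Of 9 listed inner root sheath and companion layer keratins 8 had a named probe set. Their mean level was 5.13 and 4.87 in InvCREER cells and 4.71 and 4.66 in K14CREER cells, 6 of the 8 had means below the filter value, and 0 were called by limma. Krt73, one of the 2 that were tested, had 6.45 and 5.72 in InvCREER cells and 4.58 and 4.93 in K14CREER cells. Bulge and upper follicle markers had a mean of 6.89 and 6.84 in InvCREER cells and 7.26 and 6.88 in K14CREER cells. Of 9 genes 5 were tested and 1 fell, against 0.959% called over all tested probe sets. That gene was Lgr6 (by 1.79, adjusted p = 0.0292 by limma). That call was lost when K14CREER 1 or K14CREER 2 was left out.

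Sebaceous and immune markers moved with the line but unevenly. The mean of 8 sebaceous markers was 10.37 on InvCREER 1 and 8.81 on InvCREER 2, against 7.40 and 6.88 in K14CREER cells. Of these 8, 1 rose, Dgat2 (by 1.81, adjusted p = 0.0436 by limma), against 0.959% called over all tested probe sets. The median difference was 1.90. Leaving out K14CREER 1 or K14CREER 2 ended the call of Dgat2. Single sebaceous markers had differences near those of Krt84 and Krt36 in size. Far2, which encodes an enzyme of wax synthesis, had 10.77 and 8.63 in InvCREER cells and 6.28 and 5.11 in K14CREER cells on its brighter probe set, a difference of 4.01 (adjusted p = 0.0649 by limma). Its other probe set was called, at 4.18 (adjusted p = 0.0449 by limma). The lipid droplet gene Cidea was at 3.69 (adjusted p = 0.0760 by limma) and the fatty acid elongase gene Elovl3 at 3.36 (adjusted p = 0.0750 by limma). With InvCREER 1 left out the differences were 2.94 for Far2, 2.73 for Cidea and 2.37 for Elovl3. With InvCREER 2 left out they were 5.07, 4.64 and 4.36 in the same order. With 1 K14CREER array left out the differences of these 3 genes lay between 2.97 and 4.59. The mean of 8 Langerhans and myeloid markers was 7.42 on InvCREER 1 and 6.02 on InvCREER 2, against 5.49 and 5.15 in K14CREER cells. Of the 6 tested, 0 were called by limma. Both lists were highest on InvCREER 1, and on InvCREER 2 both list means were still above those of both K14CREER arrays. Without InvCREER 1 the difference of Krt84 was 3.61 and that of Krt36 was 3.37. The part of sebaceous or immune cells in the values of Krt84 and Krt36 was not tested. Melanocyte, fibroblast and Merkel cell lists had 0 genes called by limma, with only 5, 3 and 1 tested, against 0.959% over all tested probe sets. No list mean among them was above 6.65. The fibroblast mean was 6.30 on K14CREER 1, against 5.39 on K14CREER 2 and 5.39 and 5.13 in InvCREER cells. Over the whole array 3133 probe sets had an unadjusted p under 0.05.

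**Figure D5:**
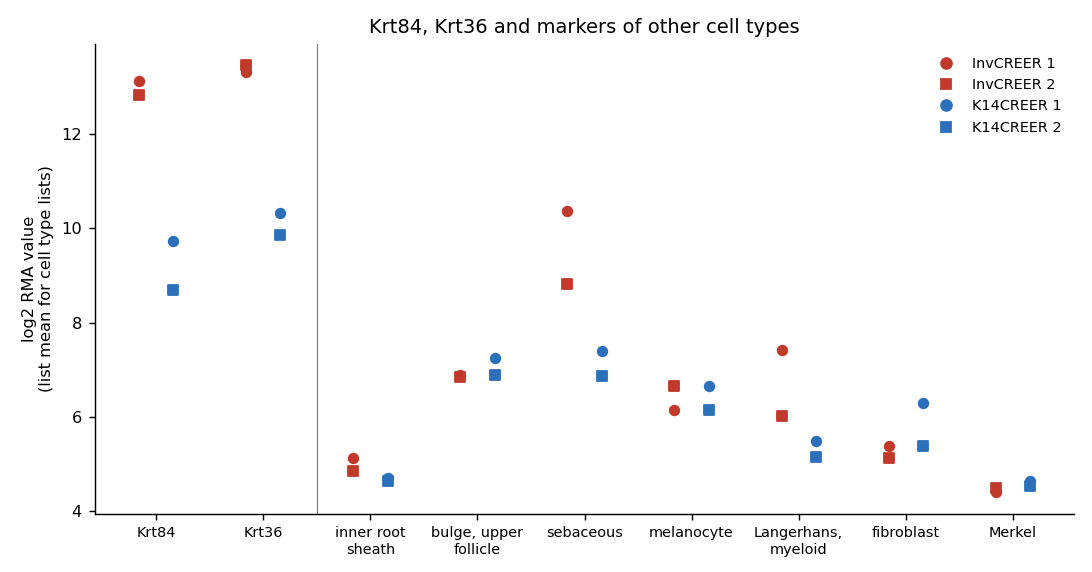
Log2 RMA values of Krt84 and Krt36 (left of the line) and means of the marker lists of 7 other cell types (right), per array, InvCREER in red and K14CREER in blue. The sebaceous mean is 10.37 on InvCREER 1 and 8.81 on InvCREER 2, and Krt84 is at 13.12 and 12.82 on these arrays.

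Genes with the most similar profile were sought among 11269 other tested genes, by the root mean square difference of values centred on their mean over the 4 arrays. This is a description of 4 arrays that all values share. Wfdc17 was nearest to Krt84, at 0.10 in log2 units, with levels of 12.18 and 11.64 in InvCREER cells and 8.77 and 7.72 in K14CREER cells. Bpifc followed at 0.22, the alkaline ceramidase gene Acer1 at 0.25, Krt36 at 0.34 and Sdr16c6 at 0.35. Krt36 was thus the fourth nearest gene to Krt84. The values were not scaled, and both genes were chosen for a large difference between the lines, so the choice itself favours this rank.

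The genes nearest to Krt36 were others. Endou, which encodes an endoribonuclease, was at 0.10, with levels of 11.42 and 11.73 in InvCREER cells and 8.57 and 8.24 in K14CREER cells. The serine protease gene Tmprss4 was at 0.12, Ly6g6c at 0.13 and the sodium-glucose transporter gene Slc5a1 at 0.21. Krt84 came at rank 16 for Krt36, again at 0.34, a rank on which the choice of both genes bears too.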

How the data were processed

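RNA of sorted basal cells was hybridised to 4 Affymetrix arrays, from 100 ng of total RNA each, per the labels' protocols. The authors deposited log2 values per probe set. They were made with RMA and Expression Console 1.1 of Affymetrix, as the submitters' processing notes say. RMA forces arrays to 1 distribution (medians 5.40 to 5.44), which hides any change in total RNA. The number of arrays limits the precision.

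From these values, 64 control probe sets of 45101 were set aside and 22519 with a mean at or above 5.42 were tested with limma 3.58.1 in R 4.3.3 (lmFit, eBayes with a trend, 2-sided, no block), adjusted over all of them. Genes were named from the platform annotation: 34945 probe sets had 1 symbol, 932 several and 9160 were unnamed here. Where a gene had several probe sets, the brightest stood for it.

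The members and the lists were chosen with earlier results of these data known. Named were all hair-type keratins, up to 4 genes per further list (called genes first, then by size of difference), 4 checks of the lines and the gate, and the 5 nearest profiles per gene, of which 1 is not reported here. Hoxc13, Slc1a3, Casp14, Lor, Flg, Hrnr, the neighbouring keratins, Krt73 and the sex-linked genes were named after their values were seen. The fit was tested on simulated data. Alternatives changed the filter, the variance model, the weights of arrays, the scaling, the probe set kind and the unit of testing, added a replicate block, or left out 1 array. Motifs were counted and figures drawn with Python 3.11.15 and matplotlib 3.10.9.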

Additional observations from a re-analysis of the deposited data

How the results depend on the processing

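The difference of Krt84 was 3.24 to 4.28 in log2 units over 13 alternatives, and that of Krt36 was 3.06 to 3.53 over 12. Their direction could not change, since the genes were chosen with every InvCREER array far above every K14CREER array. Changes of the filter, the variance model, the array weights or the block leave these differences as they are. Krt36 had no value once probe sets matching several transcripts were dropped, since its only probe set is of that kind. By that construction the count of hair-type keratins, whose 2 calls are the genes chosen on these values, became 1, and Lor, at 0.61 as reported, stood at -0.024 by its other probe set. Called probe sets, 216 as reported, numbered 405 at the upper quartile filter, 122 without the variance trend, 401 as means per gene, and 82 to 981 with 1 array left out, where a lone array is taken to vary as the other line does. The replicate numbers of the titles are not said to pair the arrays. The deviations of the number 1 arrays from the means of their lines correlated at 0.38 between the 2 lines, across the tested probe sets. With the replicate block 1390 of 22519 probe sets were called, so every list count under it stands against a larger share. With that block 5 of 23 tested regulators (Hoxc13 and Foxn1 among them), 6 of 14 epidermal keratins and 1 of 3 hard keratin partners were called. The interscale list had 3 calls as reported, 0 without the variance trend and 1 to 3 with an array left out. Regulators, 2 of 23 as reported, numbered 1 of 11 at the upper quartile filter, where Grhl3 was too dim to be tested, and 4 of 20 as means per gene. Epidermal keratins, 2 of 14 as reported, numbered 4 of 10 at the upper quartile filter and 1 of 14 without the variance trend. Hard keratin partners, 0 of 3 as reported, numbered 1 of 2 at the upper quartile filter. The brighter Casp14 probe set was at -0.12 to 0.19 with 1 array left out (-0.02 without InvCREER 1). The cause of these changes was not tested, apart from the number of genes or arrays that the alternative itself sets.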
